A study of Arabidopsis thaliana with 6 samples.

Results

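Fructose-bisphosphate aldolase is encoded in Arabidopsis thaliana by the 8 genes FBA1 to FBA8, which were taken by their gene identifiers from the 33557 genes of the deposited comparison. FBA1, FBA2 and FBA3 encode plastid enzymes, and the remaining 5 genes encode cytosolic ones. The family was selected on the fold change of FBA5 between the genotypes in this same table, so the levels and fold changes of its members are given as a description and without a test of their own. All 8 members were among the 23937 genes that the authors tested.

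Transcripts were measured by RNA sequencing of whole seedlings, 4 days old, under a light regime that the labels code as D for 4 days and FR, far-red, for 3 h. One genotype was a transgenic line with GFP-FHY1 driven by the 35S promoter in the fhy1-1 background, and the other was the fhy1-1 mutant itself, with 3 libraries each. Both genotypes therefore carry the fhy1-1 mutation. FHY1 escorts phytochrome A, the receptor for far-red light, into the nucleus, and 35S is a strong promoter active in most plant cells, so the line need not express FHY1 where or as strongly as a wild-type plant. No wild type and no seedlings kept from far-red are among the samples, and the labels do not say how many independent transgenic lines were used.

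Aldolase splits fructose bisphosphate into a pair of triose phosphates, and the reaction is reversible. In the cytosol the reaction belongs to glycolysis and, in seedlings that live on stored oil, to gluconeogenesis. In the green plastid the same reaction joins triose phosphates within the Calvin-Benson cycle. Plant aldolases are class I enzymes, in which an active-site lysine forms a Schiff base with the sugar.

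The authors' deposited table gives 1 value per gene and genotype, read here as FPKM, which counts fragments per kilobase of transcript and corrects for library size. The values combine the libraries of a genotype, so there is no SD, library depths are unknown, and the order of genes at similar levels cannot be judged against a replicate spread. A gene is said to be called when the authors' q was below 0.05. FHY1, the check on the labels, stood at 195.9 FPKM in the GFP-FHY1 line, against 19.0 FPKM in fhy1-1, values that do not separate the transgene from the mutant gene. Calls were made for 22.8% of all tested genes in the authors' deposited table, 9.92% higher and 12.9% lower in the GFP-FHY1 line. Among the 2666 tested genes with a mean of at least 50 FPKM, which include FBA1, FBA2, FBA3, FBA6 and FBA8, the share called was 68.0%, 19.1% higher and 48.9% lower. The table holds 2375 genes called higher and 3089 called lower, and with fold changes centred on the median gene and re-tested the counts were 2892 and 2220. The re-test leaves out the 582 tested genes with a value of 0 in 1 genotype. One locus, AT2G01021, held 38.0% of the FPKM sum in the GFP-FHY1 line and 28.6% in fhy1-1. Seedlings were sampled whole, so a change in the number of cells of a type and a change in RNA per cell cannot be told apart.

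In the authors' deposited table, 3 aldolase genes were called higher in the GFP-FHY1 line (FBA1, FBA2 and FBA5), 2 were called lower (FBA3 and FBA8), and 3 were not called (FBA4, FBA6 and FBA7), beside 9.92% higher and 12.9% lower among all tested genes. Nothing is read from these counts, since the same contrast chose the family. Their summed level hardly differed, at 1414 FPKM in the GFP-FHY1 line and 1332 FPKM in fhy1-1, a ratio of 1.06. Its make-up differed more. The plastid genes together had 726 FPKM in the GFP-FHY1 line and 512 FPKM in fhy1-1, a ratio of 1.42. The cytosolic genes together had 688 FPKM in the GFP-FHY1 line and 820.0 FPKM in fhy1-1, a ratio of 0.839. Plastid transcripts thus made up 51.4% of the aldolase FPKM sum in the GFP-FHY1 line and 38.5% in fhy1-1.

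**Figure D1:**
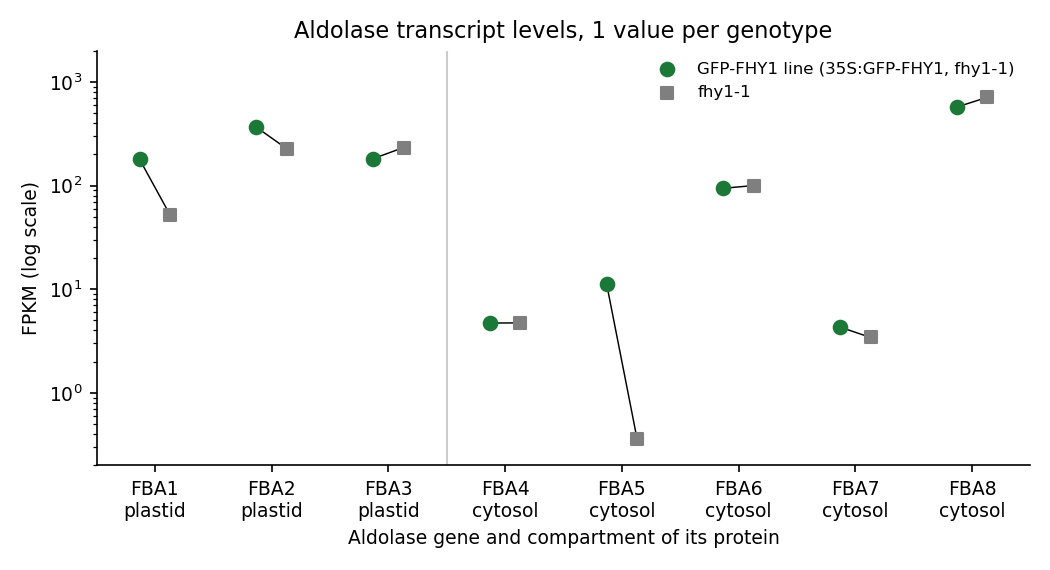
Level of each aldolase transcript in FPKM on a log axis, with the GFP-FHY1 line as green circles and fhy1-1 as grey squares, each the authors' single combined value; a line joins the pair of one gene. FBA5 has the steepest line, at 11.2 FPKM in the GFP-FHY1 line and 0.361 FPKM in fhy1-1, while FBA8 is the highest gene in both genotypes.

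FBA8 had the highest level in both genotypes. In the GFP-FHY1 line it was followed by FBA2, FBA3, FBA1, FBA6, FBA5, FBA4 and FBA7. In fhy1-1 it was followed by FBA3, FBA2, FBA6, FBA1, FBA4, FBA7 and FBA5. FBA5 thus ranked sixth in the GFP-FHY1 line and last in fhy1-1, and FBA1 stood above FBA6 in the GFP-FHY1 line and below it in fhy1-1. FBA3 and FBA1 in the GFP-FHY1 line, FBA3 and FBA2 in fhy1-1, and FBA4 and FBA7 in either genotype lay so close together that their order carries no weight without replicate values.

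**Figure D2:**
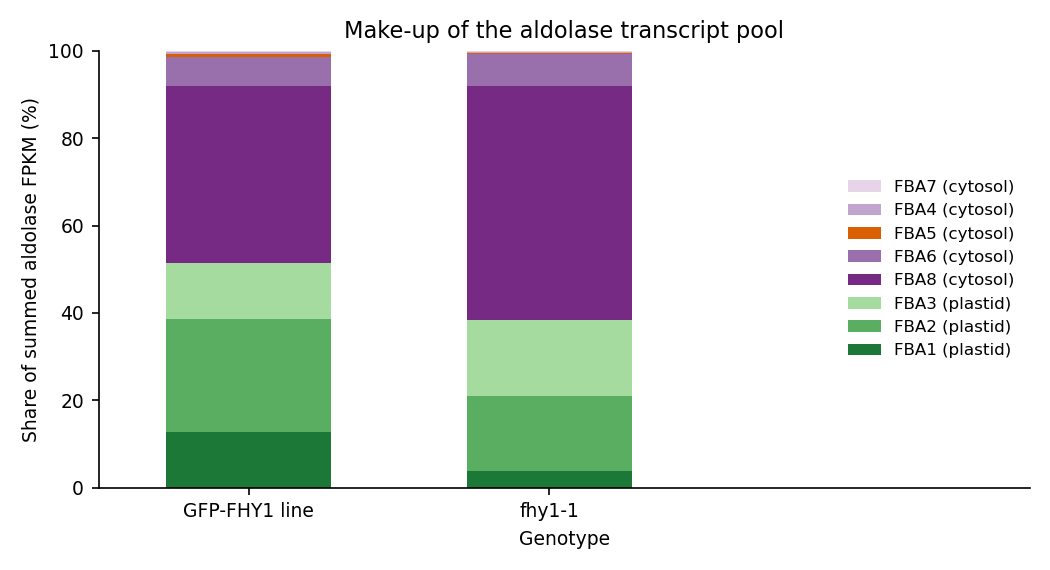
Share of the summed aldolase FPKM held by each gene, in percent, for the GFP-FHY1 line (left bar) and fhy1-1 (right bar); plastid genes are in green, cytosolic genes in purple and FBA5 in orange. FBA1 and FBA2 hold 38.5% of the sum in the GFP-FHY1 line and 21.0% in fhy1-1, while FBA8 holds 40.5% in the GFP-FHY1 line and 53.4% in fhy1-1.

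The active-site sequence of each gene was compared with that of FBA5. Each member's coding sequence held 1 match to the PROSITE signature of the class I aldolase active site, which contains the Schiff-base lysine. Its 33 coding bases were read from the RefSeq genome (TAIR10.1) in the sense of the gene, and capitals mark bases that differ from FBA5.
FBA5: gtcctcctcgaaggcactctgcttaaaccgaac
FBA7: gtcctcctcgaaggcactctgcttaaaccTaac
FBA6: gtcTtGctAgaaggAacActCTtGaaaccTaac
FBA8: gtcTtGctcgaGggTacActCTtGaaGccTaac
FBA4: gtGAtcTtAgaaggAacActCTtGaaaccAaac
FBA1: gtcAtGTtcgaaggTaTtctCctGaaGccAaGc
FBA2: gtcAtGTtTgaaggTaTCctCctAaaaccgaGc
FBA3: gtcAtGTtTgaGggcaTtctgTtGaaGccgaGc
FBA7 differed from FBA5 at 1 of these bases, FBA6 at 9, and the remaining 5 genes at 10 each. This count thus did not separate the cytosolic FBA4 and FBA8 from the plastid genes.

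Over the whole coding sequence, FBA5 and FBA7 were the closest pair, with 90.1% of 1077 aligned bases identical. FBA1 and FBA2 shared 84.1%, and FBA6 and FBA8 shared 84%. Pairs of a plastid and a cytosolic gene shared 58.8% to 64.1%, with a median of 61.9%. Of these 3 pairs, the closest in sequence lay furthest apart in log2 fold change, with FBA5 at 4.95 and FBA7 at 0.33. FBA1 and FBA2 were at 1.77 and 0.69, and FBA6 and FBA8 at -0.09 and -0.31. These are single pairs, and no test was made over them. The family was chosen on the fold change of FBA5, which favours a wide gap in its pair, so nothing is read from this order.

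**Figure D3:**
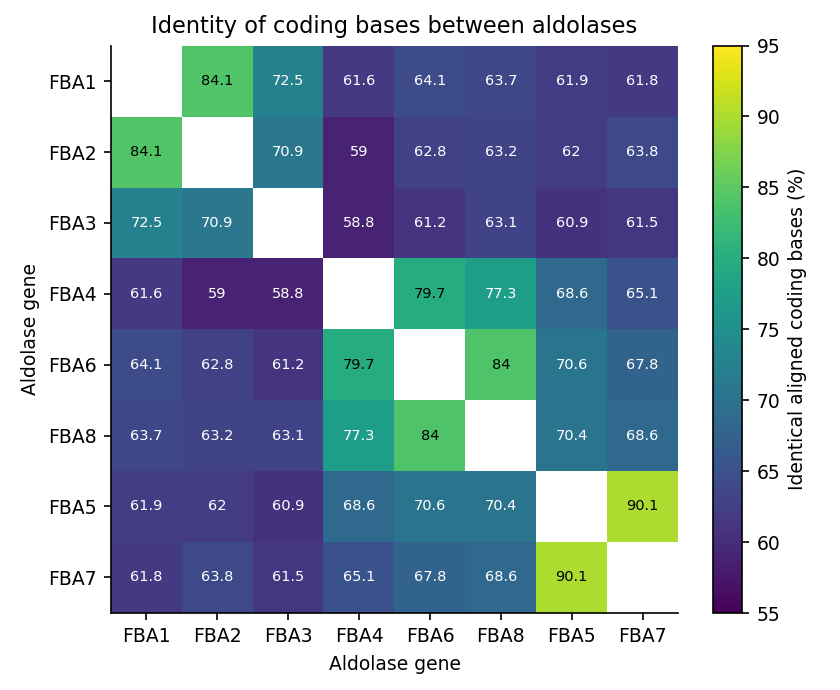
Identical bases among aligned coding bases, in percent, for every pair of aldolase genes; colour runs from dark (few identical) to yellow (many). The pairs FBA5 and FBA7 (90.1%), FBA1 and FBA2 (84.1%) and FBA6 and FBA8 (84%) stand out.

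Among the plastid genes, FBA1 and FBA2 are those known from green tissue, where they serve carbon fixation. FBA1 (AT2G21330, TAIR10 chromosome 2, 9128147 to 9130240) had 179 FPKM in the GFP-FHY1 line and 52.4 FPKM in fhy1-1, which is 3.42-fold higher in the GFP-FHY1 line (log2 fold change 1.77). Among all genes of the table it ranked 662nd by level in the GFP-FHY1 line and 2555th in fhy1-1. FBA2 (AT4G38970, chromosome 4, 18163496 to 18165762) had 366 FPKM in the GFP-FHY1 line and 227 FPKM in fhy1-1, 1.61-fold higher (log2 fold change 0.69). Both plastid genes of green tissue thus rose, FBA1 by the larger factor, and both have a q of 0 in the authors' deposited table. FBA2 exceeded FBA1 2.04-fold in the GFP-FHY1 line and 4.34-fold in fhy1-1. The call on FBA2 was lost when an assumed replicate spread of 20%, as a coefficient of variation over 3 libraries, was added to the error of the test.

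FBA3 (AT2G01140, chromosome 2, 94811 to 96655), known as the plastid aldolase of non-green tissue, went the other way. It had 182 FPKM in the GFP-FHY1 line and 233 FPKM in fhy1-1, 1.28-fold lower in the GFP-FHY1 line (log2 fold change -0.36). The authors' deposited table gives it a q of 0. Its level was 1.02 times that of FBA1 in the GFP-FHY1 line and 4.45 times in fhy1-1. The 5 root markers are epidermal genes and do not stand for the whole root. Of these, 2 were called lower and none higher in the authors' deposited table, against 9.92% higher and 12.9% lower of all tested genes. Their summed level was 167 FPKM in the GFP-FHY1 line and 209 FPKM in fhy1-1, of which PRP3 alone held 133 FPKM in the GFP-FHY1 line and 169.9 FPKM in fhy1-1. GL2 was the other one called, and RHD6, COBL9 and EXPA7 were not, at log2 fold changes of -0.06, -0.19 and -0.11. Of 3 mesophyll markers, RBCS1A, RCA and LHCB2.1, the authors' deposited table calls all higher, with a summed level of 4550.4 FPKM in the GFP-FHY1 line and 3362 FPKM in fhy1-1. RBCS1A held 3666 FPKM of it in the GFP-FHY1 line and 3083 FPKM in fhy1-1, 1.19-fold higher. LHCB2.1 had 289 FPKM in the GFP-FHY1 line and 53.9 FPKM in fhy1-1, 5.37-fold higher, and RCA was 2.65-fold higher. All 3 had a mean of at least 50 FPKM, where 19.1% of tested genes were called higher and 48.9% lower. None of 3 shoot meristem markers, STM, CLV3 and WUS, was called. CLV3 and WUS had at most 0.280 FPKM in either genotype, so their missing calls say little. STM had 2.93 FPKM in the GFP-FHY1 line and 2.66 FPKM in fhy1-1. The part of tissue make-up in the plastid aldolase values was not tested. The call on FBA3 was lost when a spread of 20% was added.

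The cytosolic genes form an abundant pair, FBA8 and FBA6, and a scarce group. FBA8 (AT3G52930, chromosome 3, 19626748 to 19629073) had 573 FPKM in the GFP-FHY1 line and 711 FPKM in fhy1-1, 1.24-fold lower in the GFP-FHY1 line (log2 fold change -0.31). It ranked 122nd among all genes by level in the GFP-FHY1 line and 92nd in fhy1-1. It was called lower in the authors' deposited table and fell by 138 FPKM, while FBA1 rose by 127 FPKM and FBA2 by 139 FPKM. The call on FBA8 was lost when a replicate spread of 10% was added. FBA6 (AT2G36460, chromosome 2, 15296701 to 15298514) had 94.2 FPKM in the GFP-FHY1 line and 100.2 FPKM in fhy1-1 (log2 fold change -0.09, q = 0.0652 in the authors' deposited table). FBA4 (AT5G03690, chromosome 5, 963148 to 965050) had 4.71 FPKM in the GFP-FHY1 line and 4.74 FPKM in fhy1-1 (log2 fold change -0.01, q = 0.990 in the authors' deposited table). FBA6 and FBA4 were not called, and the log2 fold change of FBA4 became 0.041 when centred on the median gene and 0.027 when rescaled without AT2G01021.

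FBA5 (AT4G26530, chromosome 4, plus strand, 13391293 to 13393107) had 11.2 FPKM in the GFP-FHY1 line and 0.361 FPKM in fhy1-1. The GFP-FHY1 line was 30.9-fold higher, a log2 fold change of 4.95 called with a q of 0 by the authors' deposited table. The standard error implied by the authors' fold change and test statistic was 0.44 on the log2 scale, for an interval of 4.10 to 5.81 (95%), which covers the error in the authors' test only. By log2 fold change it was 16th of the 23355 tested genes with both values above 0, and 5th of the 19011 with a mean of at least 1 FPKM. The level remained modest: FBA5 ranked 9335th of all genes in the GFP-FHY1 line and 20851st in fhy1-1. It made up 0.790% of the aldolase FPKM sum in the GFP-FHY1 line and 0.0271% in fhy1-1. FBA8 exceeded it 51.3-fold in the GFP-FHY1 line and 1968-fold in fhy1-1. The cytosolic sum therefore barely depended on it, with a ratio of 0.839 with FBA5 and 0.825 without it.

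FBA7 (AT4G26520, chromosome 4, plus strand, 13388386 to 13390374) lies directly upstream of FBA5 on the same strand. It had 4.31 FPKM in the GFP-FHY1 line and 3.42 FPKM in fhy1-1 (log2 fold change 0.33, q = 0.149 in the authors' deposited table) and was not called. The balance of the neighbours turned over: FBA5 stood at 2.59 times the level of FBA7 in the GFP-FHY1 line and at 0.106 times its level in fhy1-1. Reads can be assigned between near copies only where the copies differ. The coding sequences differ at 107 of 1077 bases, most densely in the 60 bases from coding position 1015 to 1074, where capitals mark the 12 differing bases.
FBA5: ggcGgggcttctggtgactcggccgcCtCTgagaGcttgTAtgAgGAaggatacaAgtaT
FBA7: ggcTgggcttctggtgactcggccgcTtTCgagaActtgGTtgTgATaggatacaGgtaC
The longest stretch that is identical at the same place in both is 39 bases, from coding position 495 to 533.
FBA5 and FBA7: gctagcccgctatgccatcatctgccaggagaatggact
Over whole RefSeq transcripts, 80 stretches of 36 bases were shared by FBA5 and FBA7, which is 3.56% of those of FBA5 and 3.72% of those of FBA7, and 60 stretches of 50 bases, which is 2.65% and 2.77%. Within the coding sequences alone, 6 of 1042 stretches of 36 bases and none of 50 bases were shared. None of the other 6 members had a transcript stretch of 36 or 50 bases that was found elsewhere in the genome or in another member. The search did not count overlap with a gene outside the family at a member's own locus. In RefSeq the gene models of FBA3 and FBA7 each overlap such a gene, while in the coordinates as deposited they do not. The sources used here do not give the length of the reads. The loci of FBA7 and FBA5 lie 918 bases apart as deposited, while in the later RefSeq annotation their longest gene models overlap by 109 bases. That overlap is the same stretch of genome annotated in both genes, and it enters the counts over whole RefSeq transcripts. Those counts therefore do not measure likeness between the copies alone, and the coding counts are the closer measure of it.

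Of the 3 genes on each side of the tandem pair, 1 was called in the authors' deposited table, against 22.8% of all tested genes. None was called higher, against 9.92% of all tested genes, and with so few genes nothing is read from these counts. The gene called was CPSUFE (AT4G26500), a chloroplast sulfur E protein gene. It had 9.39 FPKM in the GFP-FHY1 line and 12.0 FPKM in fhy1-1 (log2 fold change -0.35, q = 0.00373 in the authors' deposited table). UKL4 (AT4G26510), annotated as uridine kinase-like and next to FBA7, had 14.3 FPKM in the GFP-FHY1 line and 13.8 FPKM in fhy1-1. On the far side of FBA5, the receptor-like kinase gene AT4G26540 had 3.95 FPKM in the GFP-FHY1 line and 3.76 FPKM in fhy1-1. AT4G26540 and AT4G26542 have the same locus in the table, and with no statement on strand the reads of one cannot be separated from those of the other.

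**Figure D4:**
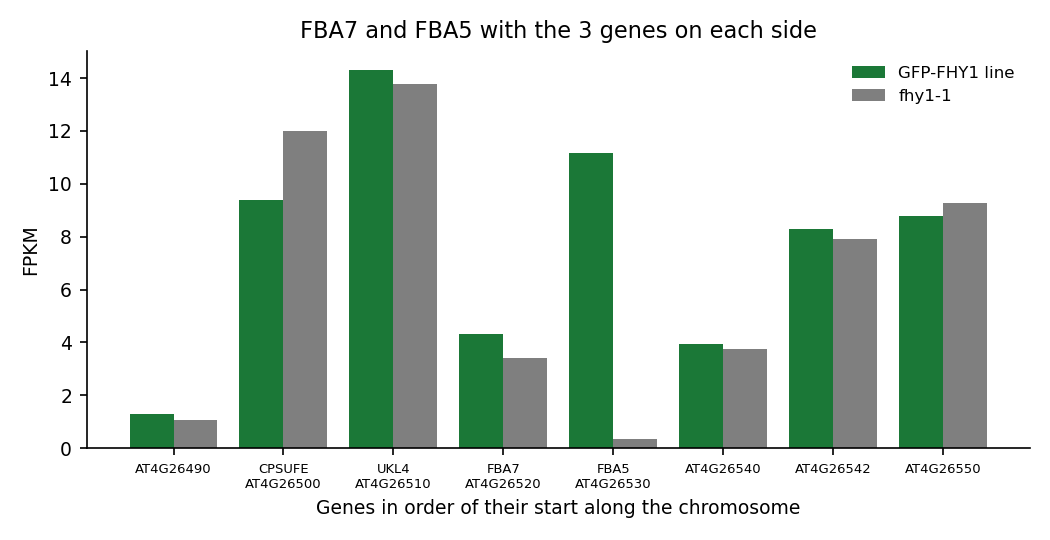
Level in FPKM of FBA7, FBA5 and the 3 genes on each side in order of their start, with the GFP-FHY1 line in green (left bar of each pair) and fhy1-1 in grey. FBA5 is at 11.2 FPKM in the GFP-FHY1 line and 0.361 FPKM in fhy1-1, and FBA7 beside it at 4.31 FPKM in the GFP-FHY1 line and 3.42 FPKM in fhy1-1.

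The 5 genes whose fold change was nearest to that of FBA5, at a mean of at least 1 FPKM and over the pair of genotype values, had log2 fold changes of 4.68 to 4.87. Best measured among them were AT5G48490, a lipid-transfer superfamily gene with 43.8 FPKM in the GFP-FHY1 line and 1.54 FPKM in fhy1-1, and AT5G42760, annotated as a leucine carboxyl methyltransferase gene, with 14.3 FPKM in the GFP-FHY1 line and 0.557 FPKM in fhy1-1. AT5G35480, AT3G45820 and AT5G55570 had 2.44 to 4.39 FPKM in the GFP-FHY1 line and at most 0.150 FPKM in fhy1-1. Likeness here rests on 1 ratio per gene.

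The 250 bases before each deposited gene start were searched on both strands for letters of known light and clock elements. The motifs were the G-box CACGTG, bound by HY5 and PIF factors, the I-box GATAAG, the evening element AAAATATCT, bound by clock MYB factors, the site CACGCGC of FHY3 and FAR1, and the TATA box TATAAA. None of these motifs contains another. Such windows of 26686 protein-coding genes held the G-box in 7.73%, the I-box in 12.8%, the evening element in 2.3%, the FHY3 and FAR1 site in 1.42% and the TATA box in 48.2% of cases. FBA1 held a G-box that begins 73 bases before the deposited start, and FBA5 an evening element that begins 100 bases before it. The 30 bases around each are shown because these were the only matches in the family other than the TATA box. A link between motif and fold change was not tested. Capitals mark the match (TAIR10.1, chr2:9130296-9130325, minus strand, and chr4:13391183-13391212, plus strand).
FBA1: attatcatcatcCACGTGgcaaatcctcgt
FBA5: ttcattatctAAAATATCTcttgtgtttgt
FBA2, FBA4, FBA6 and FBA7 held the TATA box letters and no other match, and FBA3 and FBA8 held none of the motifs. Both windows shown lie within longer gene models of the later RefSeq annotation, and the windows of the other members overlap their own longer models as well. For every member the start of transcription may therefore lie further upstream, also where no motif was found.

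The plastid aldolases were set beside a list of 21 Calvin-Benson enzymes and regulators, of which 17 were called higher, 3 lower and 1 was not called in the authors' deposited table, against 9.92% higher and 12.9% lower of all tested genes. The median log2 fold change was 0.43 over the list and -0.05 over all tested genes with both values above 0. At a mean of at least 50 FPKM, 14 of 17 members of the list were called higher and 3 lower, against 19.1% higher and 48.9% lower of all such genes, and the median was 0.43, against -0.11. CP12-2, a small protein that ties down plastid glyceraldehyde phosphate dehydrogenase and phosphoribulokinase in the dark, had 71.0 FPKM in the GFP-FHY1 line and 12.3 FPKM in fhy1-1, 5.78-fold higher. GAPA2 and GAPB encode subunits of that dehydrogenase. GAPA2 had 140 FPKM in the GFP-FHY1 line and 46.5 FPKM in fhy1-1, and GAPB had 198 FPKM in the GFP-FHY1 line and 88.9 FPKM in fhy1-1. RCA, Rubisco activase, had 595 FPKM in the GFP-FHY1 line and 225 FPKM in fhy1-1.

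FBA1, at a log2 fold change of 1.77, thus lay above every gene of this list other than CP12-2 (2.53). FBA2, at 0.69, lay near PRK, phosphoribulokinase (0.64), and below the sugar bisphosphatases SBPase and cpFBPase (0.86 and 0.87). The enzymes called lower were TKL2, a transketolase (-0.31), PGK2, a phosphoglycerate kinase (-0.16), and pdTPI, the plastid triose phosphate isomerase (-0.14), and FBA3 (-0.36) lay below all of them. Each of these is a log2 fold change of FPKM. LSMT-L (AT1G14030), a lysine methyltransferase that modifies plastid aldolases, was not called, with 6.76 FPKM in the GFP-FHY1 line and 6.65 FPKM in fhy1-1. RCA and RBCS1A stand both in this list and among the mesophyll markers. The Rubisco small subunit genes in the list are near copies, and the split of reads among them is uncertain. With a spread of 20% added, 8 of the list were called higher and 0 lower, and among tested genes with both values above 0 the counts were 580 and 93.

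**Figure D5:**
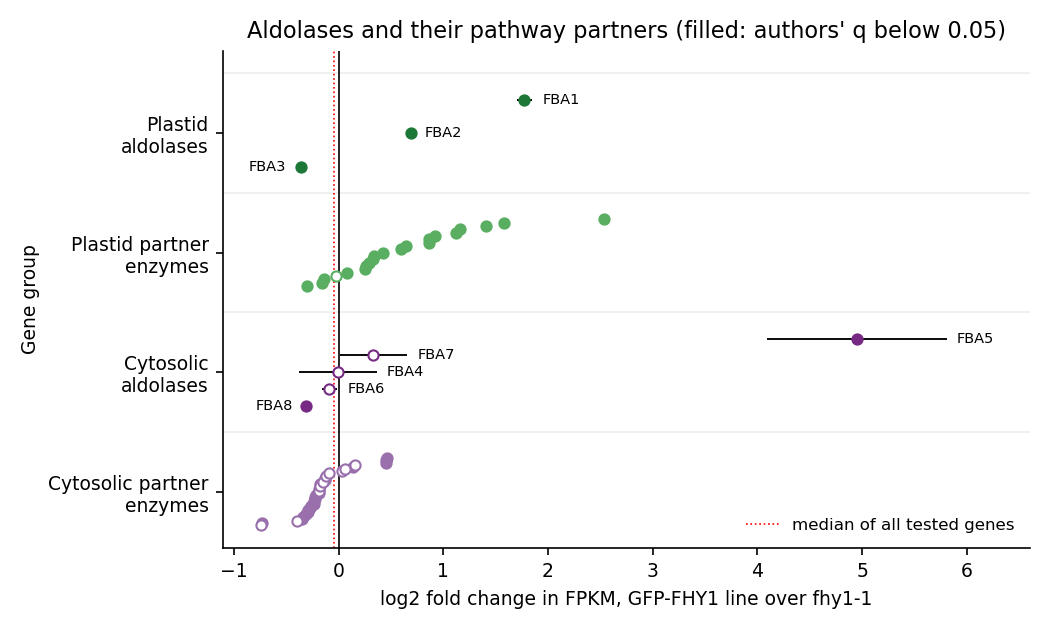
Log2 fold change in FPKM of the GFP-FHY1 line over fhy1-1 for plastid aldolases, plastid partner enzymes, cytosolic aldolases and cytosolic partner enzymes; filled points had an authors' q below 0.05, bars on the aldolases are intervals (95%) from the error implied by the authors' test, and the dotted line is the median of all tested genes at -0.05. FBA1 and FBA2 lie among the raised plastid enzymes, and FBA8 among slightly lowered cytosolic enzymes. FBA5 is at 4.95, the fold change on which the family was chosen.

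The cytosolic aldolases were set beside a list of 34 enzymes of cytosolic glycolysis and gluconeogenesis, of which 32 were tested. Of these, 18 were called lower, 4 higher and 10 not at all in the authors' deposited table, against 12.9% lower and 9.92% higher of all tested genes. The median log2 fold change was -0.19. At a mean of at least 50 FPKM, 14 of 15 enzymes of the list were called lower and 1 higher, against 48.9% lower and 19.1% higher of all such genes, and the median was -0.22, against -0.11. The direction of FBA8 (-0.31) was not that of every enzyme next to it in the pathway. Of 11 genes for the steps on either side of aldolase, 4 were called lower, 2 higher and 5 not at all, with a median log2 fold change of -0.13. On the triose phosphate side, cTPI, the cytosolic triose phosphate isomerase, had 545 FPKM in the GFP-FHY1 line and 689 FPKM in fhy1-1 (-0.34). On the other side PFK7, a phosphofructokinase, and PFPA1 and PFPB1, subunits of the pyrophosphate-dependent enzyme, were called lower at -0.23, -0.21 and -0.13, while PFK1 and cFBPase were called higher at 0.14 and 0.46. All of these are log2 fold changes.

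The largest called changes of the list were those of PCK1, cFBPase, NP-GAPDH and F2KP. PCK1, phosphoenolpyruvate carboxykinase, which feeds gluconeogenesis from seed oil, had 311 FPKM in the GFP-FHY1 line and 515 FPKM in fhy1-1, 1.66-fold lower. All 4 seed reserve markers were called lower in the authors' deposited table as well, against 12.9% of all tested genes. Their summed level was 9.73 FPKM in the GFP-FHY1 line and 42.5 FPKM in fhy1-1. CRA1 alone held 6.09 FPKM of it in the GFP-FHY1 line and 32.5 FPKM in fhy1-1, while SESA4, PAP85 and OLEO1 had at most 4.14 FPKM in either genotype. The part of seed reserves in the cytosolic values was not tested. The genes called higher were cFBPase, F2KP, NP-GAPDH and PFK1. The cytosolic fructose bisphosphatase of sucrose synthesis, cFBPase, had 52.1 FPKM in the GFP-FHY1 line and 37.8 FPKM in fhy1-1. F2KP, which makes and removes a regulator of that step, had 28.9 FPKM in the GFP-FHY1 line and 21.2 FPKM in fhy1-1. NP-GAPDH, a dehydrogenase that makes NADPH, had 80.4 FPKM in the GFP-FHY1 line and 58.7 FPKM in fhy1-1. PFK1 is a phosphofructokinase, and its log2 fold change was 0.14. Log2 fold changes of the 32 tested enzymes ran from -0.74 to 0.46. FBA5 stood at 4.95, but the family was chosen on that value, so nothing is read from the gap. With a replicate spread of 10% added, 3 enzymes of the list were called higher and 1 lower. Among tested genes with both values above 0 the counts were 1198 and 610.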

How the data were processed

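RNA from whole seedlings of both genotypes, 3 libraries each, was sequenced with the Illumina mRNA protocol, per the labels' protocols. Bowtie and TAIR10 are named in the submitters' processing notes. The deposited file has a Cuffdiff layout, per the file headers, and its values are read as FPKM, combined by the authors over replicates. The deposited test statistic, a score, is negative where the GFP-FHY1 line is higher. The deposited p-value and q-value were used as given. The deposited log2 fold change matched the FPKM ratio to within 1.46e-05. The sources used here do not state versions, filters, strand handling or dispersion settings. The labels call the replicates biological, and the table shows no spread between them.

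A call is an authors' q below 0.05, which was adjusted over all 23937 tested genes. Alternatives re-tested the fold change with the error implied by the deposited statistic, after centring, after rescaling without AT2G01021, or with a replicate spread of 10% or 20%. The re-test covers tested genes with both values above 0. Its code was run on values simulated with that same implied error, which cannot show that the error or the assumed spread suits these libraries. Members and lists were chosen with earlier results of these data known. Named genes are the members, FHY1, LSMT-L, the gene with the largest FPKM, the 3 neighbours on each side of the tandem pair, the 5 genes nearest to FBA5 in fold change, and, from each partner list, the 4 called genes with the largest change at 1 FPKM or more; other list members were named after their values were seen, as was the background at 50 FPKM.

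Coordinates are those of the table, counted from 1. Sequences and gene models came from RefSeq (TAIR10.1), which held 97.8% of the identifiers; 42.6% of genes had the same start or end in both, and 38.3% to 48.6% per chromosome in its last 2 Mb. Alignments used Biopython 1.88, and the re-test scipy 1.17.1.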

Additional observations from a re-analysis of the deposited data

How the results depend on the processing

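FBA1 and FBA5 stayed called higher under each of the 9 alternatives, with log2 fold changes of at least 1.76 and, with the pseudocount, 3.16. FBA2 lost its call under a 2-fold minimum and a spread of 20%, FBA3 also with the pseudocount, and FBA8 also with the pseudocount and a spread of 10%. The stricter settings below lower counts by construction. Over all tested genes (2375 higher, 3089 lower) they left 837 and 255 with the pseudocount and 508 and 114 with a 2-fold minimum. They left 1198 and 610 with a spread of 10%, and 580 and 93 with 20%, both over tested genes with both values above 0. Against 3 aldolases called higher and 2 lower, the lower count became 0 with a pseudocount of 1 together with a minimum change of 0.58, 0 with at least a 2-fold change, 1 with a spread of 10% and 0 with 20%. Of the plastid partners (17 higher, 3 lower), 10, 5, 11 and 8 were higher and 0, 0, 0 and 0 lower under the same settings. Of the cytosolic partners (4 higher, 18 lower), 0 were higher with the pseudocount, with the 2-fold minimum and with a spread of 20%, and 3 with 10%, and the lower counts were 1, 0, 1 and 0. FBA4, at -0.01 and not called, became 0.041 with centring and 0.027 with rescaling. The log2 ratio of the summed FPKM, as deposited and after rescaling, was 0.09 and 0.12 for all aldolases, 0.50 and 0.54 for plastid and -0.25 and -0.22 for cytosolic ones; without FBA5 and FBA7 it was 0.074 for all and -0.28 for cytosolic ones. No paired analysis was possible because replicates are combined into 1 value per genotype, and leaving out single replicates could not be done either. FPKM does not keep depth, so what depth limits is unknown.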
